A study of Drosophila melanogaster with 42 samples.

Results

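The genes described here are 9 heat shock protein genes of Drosophila melanogaster and Hsf, the gene of the transcription factor that switches them on. They were chosen by symbol, as Hsp22, Hsp23, Hsp26, Hsp27, Hsp67Ba, Hsp68, Hsp70Aa, Hsp70Ba, Hsp83 and Hsf, and all 10 were found among the 15061 genes that each table lists. Their RNA was measured in adult sons of fathers that had been held immobile between sponge plugs (paternal restraint stress, 3 sessions of 10 hours each) or had been kept free without medium, so that the restraint was applied to the father and not to the flies sequenced. The fathers were dATF-2KO males, which lack the whole gene of the stress-responsive transcription factor dATF-2 and had been backcrossed to w1118, or w1118 males, the wild type of the study. All mothers were w1118, so every son carried the w1118 background and could receive the dATF-2KO allele only from his father. Each library came from a pool of 50 sons, aged 5 to 6 days by the sample labels and 6 to 7 days by the series description, frozen and separated into heads and bodies without heads.

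The groups with a value for each library were bodies of sons of restrained and unrestrained dATF-2KO fathers, heads of the same kinds of sons, and heads of sons of restrained and unrestrained w1118 fathers, with 5 libraries in each of these 6 groups. Bodies of sons of w1118 fathers had 6 libraries in each group by the labels, but the 12 columns of that table show neither sample nor group, and only the authors' mean for the restrained fathers was read from it. The replicates are called biological by the series description, but separate crosses behind the pools are not described, and p-values therefore cover pool-to-pool spread only. Levels are FPKM, fragments scaled to transcript length and to the library's mapped total, which is a scale per length and allows levels of different genes to be set side by side.

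Heat shock proteins are chaperones, which hold unfolding proteins, refold them or pass them on. On heat or other proteotoxic stress, Hsf forms trimers, binds heat shock elements in the promoters of these genes and drives their transcription within minutes. Without stress the genes differ: Hsp83 is transcribed at a high level in all tissues, the small heat shock protein genes are also controlled by developmental signals such as ecdysone and are transcribed in ovary and testis, and the Hsp70 genes of Drosophila are nearly silent.

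Hsp22, Hsp23, Hsp26, Hsp27 and Hsp67Ba, the 5 small heat shock protein genes, lie side by side in the cluster of cytological region 67B, within 12561 bases of chromosome arm 3L (9365822 to 9378382 in genome build dm3, the build of the tables). Hsp22 (FBgn0001223, 9365822 to 9368064) encodes a mitochondrial small chaperone, and its locus overlaps that of Hsp67Bb in the tables. Hsp83 (FBgn0001233), the cytosolic Hsp90 chaperone that Hsf itself binds, lies apart from the cluster at lower positions of 3L, 3192969 to 3197631. It overlaps CG14966, which is on the other strand in the BDGP6 annotation of Ensembl. On 3R lie 3 members of the Hsp70 family: Hsp68 (FBgn0001230) at 19880113 to 19883032, Hsp70Aa (FBgn0013275) at 7779885 to 7782266, where it overlaps Hsp70Ab, and Hsp70Ba (FBgn0013277) at 8291026 to 8293500. Hsf (FBgn0001222) lies on 2R. In that annotation 7 of the 10 genes have a single exon in every transcript, Hsp22 has 1 to 3 exons, Hsp83 has 2 and Hsf has 7 to 9. Hsp70Aa and Hsp70Ba have near-identical copies, between which reads could be split, and the strand setting of the counting is not given, so the values of the Hsp70 genes and of overlapping genes are uncertain.

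The labelled tissues held their markers: 7 photoreceptor genes summed to between 32941 and 35642 FPKM in heads with either kind of father, against 17.1 to 19.2 FPKM in bodies, and 8 testis genes summed to at least 3255 FPKM in every body and at most 15.8 FPKM in every head. Atf-2 was 69.1 to 75.0 FPKM in heads of sons of dATF-2KO males, against 66.7 to 74.7 FPKM for w1118 males. The ratios of means were 1.05 and 0.97 with restrained and unrestrained fathers. Sons with only the maternal copy of a gene would be expected to have less of its RNA, which these heads do not show. In bodies Atf-2 averaged 11.4 and 11.8 FPKM with restrained and unrestrained dATF-2KO fathers, beside the authors' mean of 22.5 FPKM with restrained w1118 fathers. The heads thus show no lower Atf-2 level to go with the label of the father's genotype. Why they do not was not tested, and that genotype is given here as labelled. All these levels are on scales set separately for each table. In the authors' mean Hsp83 and Hsp22 were higher too, by a smaller ratio than Atf-2. Hsf and Hsp23 were close there to their means with restrained dATF-2KO fathers. In 2 libraries RNA of eggs and yolk, or of yolk, stood far above the rest. Restrained replicate 3 of the bodies had a sum of 2057 FPKM over 8 egg and yolk genes, against 6.66 to 7.93 FPKM in the other 9 bodies, with all 8 genes above all other bodies and 7 of them over 10 times higher. Restrained replicate 3 of the heads with dATF-2KO fathers had a sum of 1214 FPKM, against 31.8 to 59.4 FPKM in the other 9, from the yolk protein genes Yp1, Yp2 and Yp3, while Cp36, Cp38 and Vm26Ab were listed at 0 and osk and nos at 0.0409 and 0.0261 FPKM. The value of 59.4 FPKM was that of unrestrained replicate 3, and the remaining heads of that table were at 31.8 to 36.9 FPKM. That unrestrained library was kept where the libraries with egg and yolk RNA were left out. Read totals per library were not used here. From the smallest steps of low values, the shallowest library had 0.692 of the depth of the deepest among the bodies, 0.597 among heads with dATF-2KO fathers and 0.848 among heads with w1118 fathers.

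Without any stress to the flies themselves, 8 of the 10 genes were present at 3 FPKM or more on average in each of the 6 groups, and the 2 Hsp70 genes were near the lower end of the scale. Hsp83 was the most abundant. It averaged 479.5 ± 14.7 FPKM in bodies with restrained dATF-2KO fathers and 481 ± 20.7 FPKM with unrestrained ones, 323 ± 2.02 and 336 ± 3.85 FPKM in heads with restrained and unrestrained dATF-2KO fathers, and 310.3 ± 4.64 and 310.4 ± 6.19 FPKM in heads with restrained and unrestrained w1118 fathers (SD, n = 5 each). Hsp83 therefore made up 60.9% ± 2.56 and 62.7% ± 2.23 of the summed FPKM of the 10 genes in bodies with restrained and unrestrained dATF-2KO fathers, and between 78.7% and 80.3% on average in the 4 groups of heads. It was also among the steadiest between replicates, with a coefficient of variation of 0.624% to 4.31% over the 6 groups, against 7.65% to 24.1% for Hsp26 and 8.36% to 23.1% for Hsp27.

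Hsp70Aa, one of the strictly inducible Hsp70 genes, was listed at 0 in 27 of the 30 libraries. The remaining 3 were heads, with 0.0246 FPKM in a library with restrained dATF-2KO fathers, 0.0235 FPKM in one with unrestrained dATF-2KO fathers and 0.0232 FPKM in one with unrestrained w1118 fathers. Hsp70Ba, another inducible copy, was above 0 in every library, between 0.0204 and 0.217 FPKM. Its highest value was in the body library with egg and yolk RNA, and every other library was at or below 0.127 FPKM. The constitutive cognate Hsc70-4, by contrast, averaged 949.9 ± 29.4 FPKM in bodies with restrained dATF-2KO fathers and 935 ± 29.1 FPKM with unrestrained ones. Hsp68, a heat-inducible relative of the Hsp70 genes, was at 20.7 to 24.7 FPKM in the 10 bodies.

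**Figure D1:**
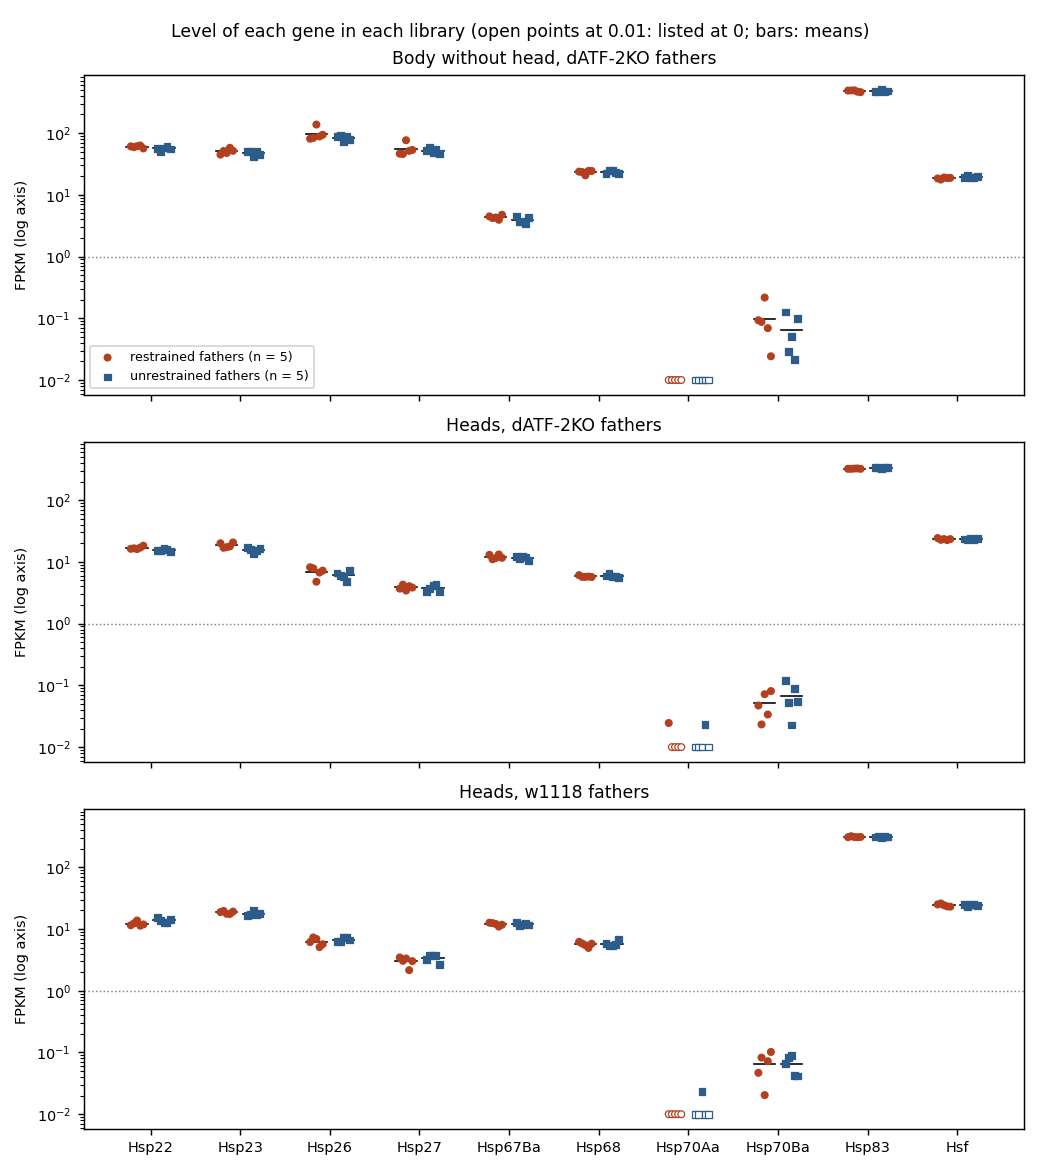
FPKM (log axis) of each of the 10 genes in each library, with restrained fathers as circles left of unrestrained fathers as squares, 5 libraries a group, in 3 panels for bodies and heads with dATF-2KO fathers and heads with w1118 fathers. Bars are means, open points stand for values listed at 0 and the dotted line is 1 FPKM, the lower limit for testing. Hsp83 stands above 302 FPKM in every panel and the 2 Hsp70 genes below 0.3 FPKM. For genes above the dotted line, most restrained and unrestrained libraries lie close together on this axis. The 2 groups do not overlap for Hsf in bodies and for Hsp83 in heads with dATF-2KO fathers.

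Bodies and heads differed in the order of the genes. In bodies with unrestrained dATF-2KO fathers Hsp83 was followed by Hsp26 (84.0 ± 8.03 FPKM), Hsp22 (56.4 ± 3.92 FPKM), Hsp27 (51.5 ± 4.68 FPKM), Hsp23 (47.5 ± 4.05 FPKM), Hsp68 (23.3 ± 1.17 FPKM), Hsf (19.5 ± 0.499 FPKM) and Hsp67Ba (3.91 ± 0.48 FPKM). Among neighbours in that order, the library ranges of Hsp22 and Hsp27 overlapped, as did those of Hsp27 and Hsp23, and the other neighbours were apart. In heads with the same fathers Hsf came after Hsp83, at 23.4 ± 0.595 FPKM, and was followed by Hsp23 (15.8 ± 1.33 FPKM), Hsp22 (15.6 ± 0.592 FPKM), Hsp67Ba (11.7 ± 0.8 FPKM), Hsp26 (6.10 ± 0.888 FPKM), Hsp68 (5.93 ± 0.305 FPKM) and Hsp27 (3.77 ± 0.451 FPKM). There the ranges of Hsp23 and Hsp22 overlapped, as did those of Hsp26 and Hsp68 and those of Hsp70Ba and Hsp70Aa.

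The tables of bodies and heads were scaled separately by the authors, so levels in the 2 tissues are set side by side without a test. Hsp26, a cytosolic small chaperone, was at 72.1 to 91.6 FPKM in bodies with unrestrained dATF-2KO fathers, against 4.83 to 7.19 FPKM in heads with the same fathers, a ratio of means of 13.8. Hsp27, a small chaperone found largely in the nucleus, was at 46.2 to 57.7 FPKM in bodies and at 3.33 to 4.33 FPKM in heads, a ratio of 13.7. Both genes were thus far more abundant in the body, with no overlap between libraries of the 2 tissues.

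The other genes of the group had smaller ratios of body over head in sons of unrestrained dATF-2KO fathers: 3.94 for Hsp68, 3.62 for Hsp22, 3.01 for Hsp23, also a cytosolic small chaperone, and 1.43 for Hsp83. Hsp67Ba, which lies between Hsp26 and Hsp23 in the 67B cluster, went the other way, at 3.38 to 4.53 FPKM in bodies and 10.5 to 12.4 FPKM in heads, 2.99 times higher in heads. Hsf was 1.20 times higher in heads. Over 12880 genes of at least 1 FPKM in either tissue, the median ratio of body over head was 1.17. The FPKM of all genes summed to 1014446 to 1112219 in body libraries and to 681793 to 724792 in head libraries with dATF-2KO fathers. Ratios near 1, such as those of Hsp83 and Hsf, therefore cannot be told from a difference of scale. Hsp26 and Hsp67Ba, which are neighbours on the same strand of the 67B cluster, thus lay on opposite sides of equal levels.

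Of the 8 genes with at least 1 FPKM in either tissue, 6 had all body libraries above all head libraries and 2 had all below, with unrestrained as with restrained fathers. Over all genes of that level with unrestrained fathers these shares were 49.3% above and 33.1% below, and with restrained fathers 49% and 32.5%, so lack of overlap was common. Whether the shares of the heat shock genes differ from these was not tested. The ratios with restrained fathers were 13.9 for Hsp26, 14.2 for Hsp27, 4.01 for Hsp68, 3.56 for Hsp22, 2.72 for Hsp23 and 1.48 for Hsp83. In RNA of whole bodies and heads, a lower share of cells that express a gene and less of its RNA per cell cannot be told apart.

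Heads labelled as sons of dATF-2KO fathers and of w1118 fathers, which Atf-2 does not tell apart, came from separately scaled tables too. Hsp83 was at 322 to 326 FPKM with restrained dATF-2KO fathers, against 307 to 318 FPKM with restrained w1118 fathers, and at 329.8 to 340.5 FPKM with unrestrained dATF-2KO fathers, against 303 to 319.7 FPKM with unrestrained w1118 fathers. Hsp22 was at 16.1 to 18.3 FPKM with restrained dATF-2KO fathers, against 11.3 to 13.7 FPKM with restrained w1118 fathers, whereas with unrestrained fathers the ranges overlapped (14.8 to 16.3 FPKM for dATF-2KO and 12.6 to 15.4 FPKM for w1118). Ratios of dATF-2KO over w1118 means were 1.04 and 1.08 for Hsp83 and 1.39 and 1.13 for Hsp22 with restrained and unrestrained fathers. The other 8 genes overlapped between the genotypes. All dATF-2KO libraries were above all w1118 libraries for Hsp22 and Hsp83 with restrained fathers and for Hsp83 with unrestrained ones. Of all genes of at least 1 FPKM, 8.75% lay so with restrained fathers and 9.89% with unrestrained fathers. None of the 10 genes had all dATF-2KO libraries below, where 5.89% and 7.11% of genes did.

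The main question of the study was whether the father's restraint changed expression in his sons. No heat shock gene was called in any of the 3 comparisons that could be tested. Bodies with w1118 fathers, the remaining comparison of the design, were not tested here, so nothing is said of restraint in them. A call required an adjusted p under 0.05 (limma, Benjamini-Hochberg over all genes tested) and a change of at least 1.4-fold, and only genes averaging 1 FPKM or more over a table were tested, which left out Hsp70Aa and Hsp70Ba. For the 8 genes tested, the 24 changes in the 3 comparisons ranged from 0.888-fold to 1.17-fold, and with all libraries kept all 24 of their 95% intervals lay between 0.738-fold and 1.395-fold, inside the 1.4-fold limit in both directions. Without the head library with yolk RNA, the interval of Hsp26 in heads with dATF-2KO fathers reached past that limit. The folds are on the scale of FPKM + 0.5, on which the change of low genes is understated.

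**Figure D2:**
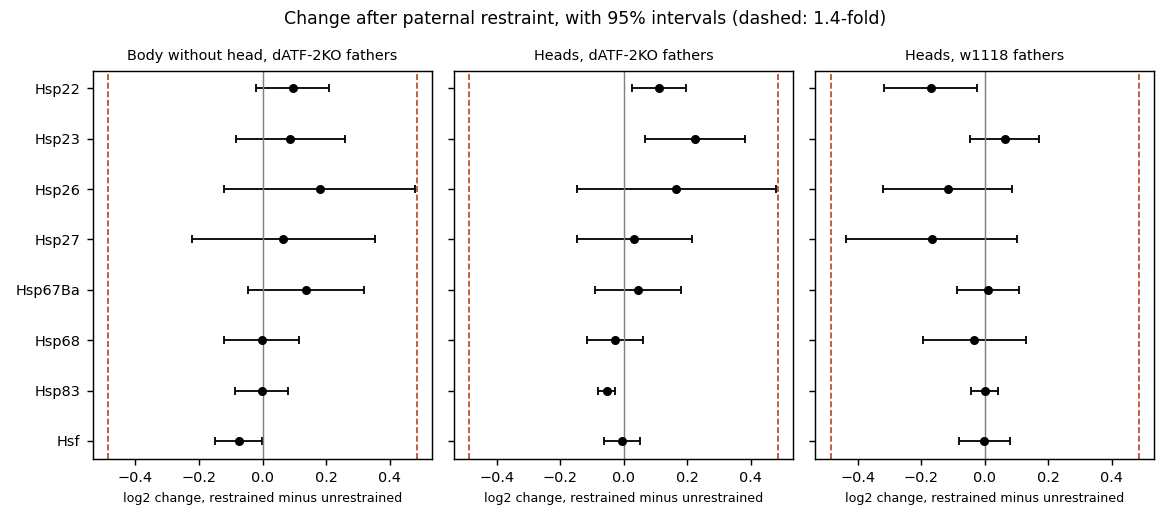
Change after paternal restraint of the 8 genes tested, as log2 of restrained over unrestrained on the scale of log2(FPKM + 0.5), with 95% intervals from limma (n = 5 libraries a group), in 3 panels for bodies and heads with dATF-2KO fathers and heads with w1118 fathers. Dashed lines are 1.4-fold up and down, and every interval ends inside them. Those of Hsp26 and Hsp27 are the widest in bodies.

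In bodies with dATF-2KO fathers, 0 of the 8 genes were called higher and 0 lower, where 0.121% and 0.0243% of 12363 genes were. Without the fold limit the counts of heat shock genes were again 0 and 0, where 0.121% and 0.0404% of genes passed. At an unadjusted p under 0.05, limma gave 0 genes higher and 1 lower, where 3.07% of all genes tested were higher and 4.26% lower, and no call was made by the robust or the weighted fit either. The median change of the 8 was 0.08 on the log2 scale, beside -0.02 over all genes tested. Hsf, the activator, was the gene with the unadjusted p under 0.05: it was at 18.4, 17.7, 19.1, 18.7 and 18.8 FPKM with restrained fathers, against 19.3, 20.4, 19.1, 19.3 and 19.6 FPKM with unrestrained ones. The 2 groups did not overlap, although the highest restrained and the lowest unrestrained library both round to 19.1 FPKM, and the means were 18.5 ± 0.537 and 19.5 ± 0.499 FPKM (SD, n = 5 each). The log2 change was -0.08 (SE 0.03, limma adjusted p = 0.675), and an exact two-sided permutation test gave p = 0.00794, the smallest that 5 against 5 libraries allow. The groups did not overlap for 1 of the 10 genes, Hsf, where 1.09% of the genes tested had all restrained libraries below and 0.906% above all unrestrained ones.

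Hsp26 and Hsp27 had the widest intervals in bodies, and 1 library set them. Hsp26 was at 81.0, 83.3, 137, 88.2 and 93.7 FPKM with restrained fathers, against 88.4, 91.6, 72.1, 88.5 and 79.4 FPKM with unrestrained fathers. Hsp27 was at 46.4, 45.8, 76.5, 51.5 and 53.3 FPKM with restrained fathers, against 51.9, 57.7, 47.6, 54.0 and 46.2 FPKM with unrestrained fathers. The third restrained library, the highest for both genes, is the one with egg and yolk RNA, and the other 4 restrained libraries lie within or close to the unrestrained range. The log2 changes were 0.18 (SE 0.14, adjusted p = 0.83) for Hsp26 and 0.07 (SE 0.13, adjusted p = 0.927) for Hsp27, and without that library they were 0.05 (SE 0.08, adjusted p = 0.973) and -0.06 (SE 0.07, adjusted p = 0.964). The part of egg and yolk RNA in the values of this library was not tested.

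The same library had the lowest Hsp68 of its group, at 20.7 FPKM beside 23.4 to 24.4 FPKM in the other 4, while its Hsp22 (61.3 FPKM), Hsp23 (47.5 FPKM) and Hsp83 (492 FPKM) lay among those of the other bodies. No call was made for the remaining genes. Hsp22 was at 61.0, 59.2, 61.3, 62.9 and 56.4 FPKM with restrained fathers, against 56.4, 50.9, 57.2, 61.8 and 55.4 FPKM with unrestrained ones, a log2 change of 0.09 (SE 0.05, adjusted p = 0.739). Hsp23 was at 44.8, 51.3, 47.5, 57.7 and 51.7 FPKM with restrained fathers, against 49.7, 51.1, 41.5, 50.1 and 45.3 FPKM with unrestrained ones, a log2 change of 0.09 (SE 0.08, adjusted p = 0.845). Most libraries of either gene lay inside the range of the other group. Hsp67Ba averaged 4.33 ± 0.303 and 3.91 ± 0.48 FPKM with restrained and unrestrained fathers, a log2 change of 0.14 (SE 0.08, adjusted p = 0.767). Hsp68 and Hsp83 had log2 changes of -0.003 and -0.003, with adjusted p-values of 0.996 and 0.993. Summed over the 5 small heat shock protein genes, the level was 266 ± 35.6 FPKM with restrained fathers and 243 ± 15.9 FPKM with unrestrained ones (SD, n = 5 each; no test), and the library with egg and yolk RNA had the highest sum, 327 FPKM.

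**Figure D3:**
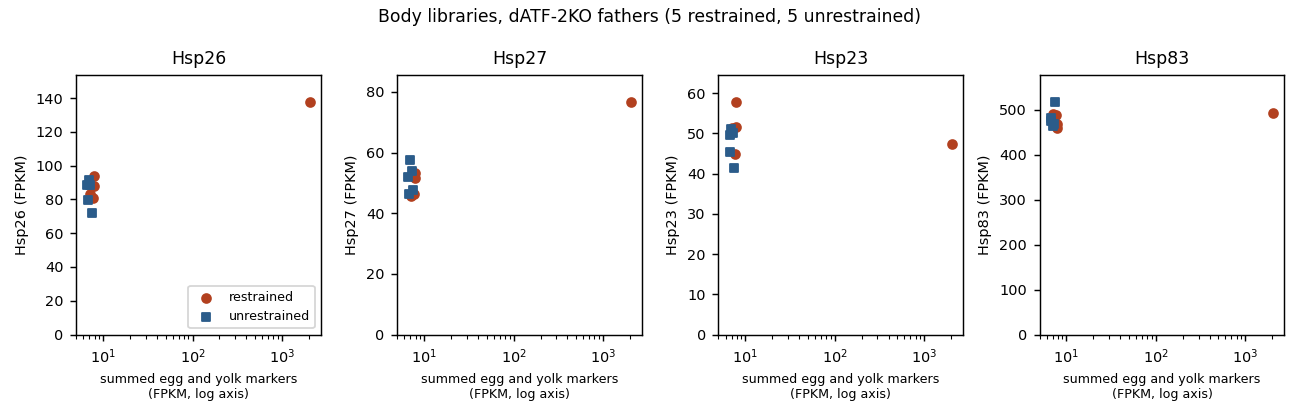
Hsp26, Hsp27, Hsp23 and Hsp83 (FPKM, axes from 0) against the summed FPKM of 8 egg and yolk genes (log axis) in the 10 body libraries with dATF-2KO fathers, 5 with restrained fathers as circles and 5 with unrestrained fathers as squares. The library with a sum of 2057 FPKM has the highest Hsp26 (137 FPKM) and Hsp27 (76.5 FPKM) of the 10, while its Hsp23 (47.5 FPKM) and Hsp83 (492 FPKM) lie among the others.

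In heads with dATF-2KO fathers, again 0 of 8 genes were called in either direction, where 0% of 9975 genes were called higher and 0.01% lower. Without the fold limit 0 passed, where 0% and 0.0501% of genes did. At an unadjusted p under 0.05, limma gave 2 genes higher (Hsp22 and Hsp23) and 1 lower (Hsp83), where 6.05% of all genes tested were higher and 4.39% lower, and the robust and weighted fits made no call. The median change of the 8 was 0.04 on the log2 scale, beside -0.002 over all genes. Hsp83 showed the smallest p of the group: it was at 322, 322, 325, 326 and 322 FPKM with restrained fathers, against 335, 340.5, 329.8, 337 and 337 FPKM with unrestrained fathers. All restrained libraries were below all unrestrained ones, as in 0.792% of the genes tested there, and none of the 10 had all above, as 1.43% did. The difference was small, a log2 change of -0.05 (SE 0.01, adjusted p = 0.182) or 0.963-fold, with an exact permutation p of 0.00794, the smallest possible.

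Hsp23 and Hsp22 lay higher with restrained fathers, with an overlap. Hsp23 was at 20.03, 16.9, 17.3, 17.8 and 20.7 FPKM with restrained fathers, against 17.3, 15.9, 13.8, 15.4 and 16.7 FPKM with unrestrained fathers, a log2 change of 0.22 (SE 0.07, adjusted p = 0.307). Hsp22 was at 16.3, 16.6, 16.1, 17.1 and 18.3 FPKM with restrained fathers, against 15.2, 15.5, 16.3, 15.96 and 14.8 FPKM with unrestrained fathers, a log2 change of 0.11 (SE 0.04, adjusted p = 0.352). Neither passed the adjusted threshold. Exact permutation tests gave p = 0.0159 for Hsp23 and p = 0.0238 for Hsp22.

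Of the 8 genes tested, Hsp26 had the highest coefficient of variation in these heads (19.3% with restrained and 14.6% with unrestrained fathers), at 8.19, 7.88, 4.78, 6.73 and 7.23 FPKM with restrained fathers and at 6.61, 6.03, 5.84, 4.83 and 7.19 FPKM with unrestrained ones. Its lowest value with restrained fathers was in the library with yolk RNA, the third. With all libraries its log2 change was 0.17 (SE 0.14, adjusted p = 0.739), and without that library 0.29 (SE 0.10, adjusted p = 0.465), so leaving it out moved the value by over 1.5 times without a call. The part of yolk RNA in that value was not tested. The unadjusted limma p of Hsp26 was 0.266 with all libraries and 0.0217 without the library with yolk RNA. Without it Hsp26 was thus higher at p under 0.05 as well, beside Hsp22 and Hsp23. The share of all genes at that p was not taken for that fit. Hsp27, Hsp67Ba, Hsp68 and Hsf had log2 changes of 0.03, 0.04, -0.03 and -0.01, with adjusted p-values from 0.855 to 0.974. The sum of the 5 small heat shock protein genes was 58.3 ± 3.49 FPKM with restrained fathers and 52.9 ± 1.09 FPKM with unrestrained ones, against 51.9 ± 2.98 and 53.5 ± 1.19 FPKM in heads with restrained and unrestrained w1118 fathers (SD, n = 5 each; no test).

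In heads with w1118 fathers 0 of 8 genes were called, where 0.0504% of 9924 genes were called higher and 0.0403% lower. Without the fold limit 0 passed, where 0.645% and 0.464% of genes did. At an unadjusted p under 0.05, limma gave 0 genes higher and 1 lower, Hsp22, where 7.06% of all genes tested were higher and 8.69% lower, and the robust and weighted fits made no call. The median change of the 8 was -0.02, beside -0.01 over all genes. Hsp22 was at 11.5, 12.4, 13.7, 11.3 and 11.8 FPKM with restrained fathers, against 15.4, 13.7, 12.7, 12.6 and 14.4 FPKM with unrestrained fathers. The groups overlapped through the third restrained library, and the log2 change was -0.17 (SE 0.07, adjusted p = 0.244). An exact permutation test gave p = 0.0476. None of the 10 genes had all restrained libraries above or all below the unrestrained ones, where 2.73% and 2.69% of the genes tested did.

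Among the other genes of these heads, Hsp27 was at 2.15 to 3.46 FPKM with restrained fathers and at 2.70 to 3.79 FPKM with unrestrained ones, a log2 change of -0.17 (SE 0.12, adjusted p = 0.56), and Hsp26 was at 5.09 to 7.29 FPKM and 6.21 to 7.32 FPKM with restrained and unrestrained fathers, a log2 change of -0.12 (SE 0.09, adjusted p = 0.59). Hsp23 had a log2 change of 0.06 (SE 0.05, adjusted p = 0.588). The log2 changes of Hsp83 and Hsf were -0.001 (SE 0.02) and -0.002 (SE 0.04), with 95% intervals of -0.04 to 0.04 and -0.08 to 0.08.

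**Figure D4:**
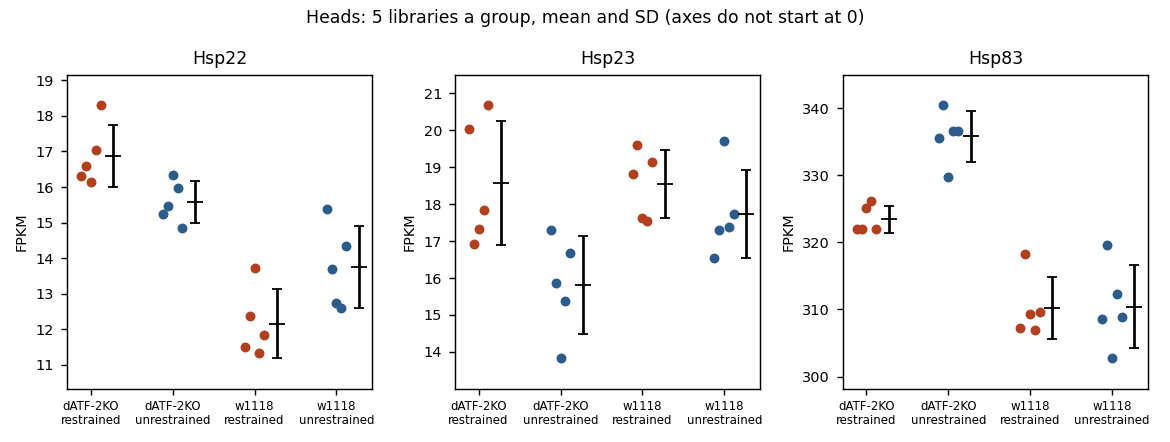
FPKM of Hsp22, Hsp23 and Hsp83 in the 5 head libraries of each group, with the mean and SD beside the points; restrained groups stand left of unrestrained ones and dATF-2KO fathers left of w1118 fathers, and the axes do not start at 0. Hsp22 averages 16.9 and 15.6 FPKM with restrained and unrestrained dATF-2KO fathers, against 12.2 and 13.8 FPKM with restrained and unrestrained w1118 fathers. For Hsp83, the libraries of the w1118 groups overlap, and those of each dATF-2KO group are apart from all other groups.

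Whether the response to restraint differed between the fathers' labelled genotypes was tested directly, as the change in heads with dATF-2KO fathers minus the change in heads with w1118 fathers, each taken within its own table. No heat shock gene passed an adjusted p of 0.05, where 0.153% of 9808 genes did, and 2 of the 8 had an unadjusted p under 0.05, where 11.6% of all genes did. Hsp22 had the smallest p of the 8: its change was 0.11 with dATF-2KO fathers and -0.17 with w1118 fathers on the log2 scale, a difference of 0.28 (SE 0.08, 95% interval 0.12 to 0.45, adjusted p = 0.179). For Hsp83 the changes were -0.05 and -0.001 with dATF-2KO and w1118 fathers, a difference of -0.05 (SE 0.02, adjusted p = 0.326). Hsp26 differed by 0.28 and Hsp27 by 0.20, with intervals of -0.08 to 0.65 and -0.11 to 0.51 that reach beyond 1.4-fold, and the remaining 4 genes by at most 0.16.

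Between heads and bodies with dATF-2KO fathers, the difference of the changes was tested in the same way. Heads and bodies were separated from frozen flies, so those of the same number may come from the same pool. With same-numbered heads and bodies paired, an alternative added after seeing the data, 0 of 9350 genes passed, and the lowest adjusted p among the 8 was 0.672 (Hsf). Deviations of same-numbered heads and bodies had r from -0.16 to 0.03 over genes. Yet the body and the head library with yolk RNA carry the same label, restrained replicate 3. Whether same-numbered libraries share a pool is therefore not known. No heat shock gene passed, at 0.0214% of 9350 genes in all, and none had an unadjusted p under 0.05, where 8.62% of all genes did. The value nearest to it was that of Hsf, whose change was -0.01 in heads and -0.08 in bodies, a difference of 0.07 (SE 0.04, adjusted p = 0.634). The widest interval was that of Hsp26, from -0.44 to 0.42.

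For bodies with w1118 fathers the authors' mean over restrained fathers was the only value used, without an error or a comparison. It was 630.0 FPKM for Hsp83, 107 FPKM for Hsp26, 93.9 FPKM for Hsp22, 73.8 FPKM for Hsp27, 53.3 FPKM for Hsp23, 29.5 FPKM for Hsp68, 19.2 FPKM for Hsf and 4.94 FPKM for Hsp67Ba. Hsp70Ba was at 0.159 FPKM and Hsp70Aa at 0.00254 FPKM. In bodies with restrained dATF-2KO fathers Hsp83 and Hsp26 were also the highest 2 of the 10 genes, and Hsf, Hsp67Ba and both Hsp70 genes the lowest 4. Since each table has its own scale and this mean has no replicates here, no difference between the fathers' genotypes can be read from it.

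No call was made after restraint in a wider set of chaperones either. In 6 lists, which include the genes above, chaperones and their partners came to 76 genes, of which 67 were found in the tables. Genes called in either direction were 0 of 60 tested in bodies and 0 of 56 in heads with dATF-2KO fathers, and 0 of 56 in heads with w1118 fathers. At an unadjusted p under 0.05, limma gave 3 higher and 3 lower in bodies with dATF-2KO fathers, 3 higher and 5 lower in their heads, and 6 higher and 6 lower in heads with w1118 fathers. Over all genes tested the shares at that p were 3.07% and 4.26%, 6.05% and 4.39%, and 7.06% and 8.69%, and those called 0.121% and 0.0243%, 0% and 0.01%, and 0.0504% and 0.0403%. The median changes of the listed genes were 0.01, -0.003 and -0.02, beside -0.02, -0.002 and -0.01 for all genes in those 3 comparisons.

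The listed gene with the smallest adjusted p was Hsc70-3, the Hsp70 chaperone of the endoplasmic reticulum (BiP), in heads with w1118 fathers. It was at 157, 158, 163, 166 and 158 FPKM with restrained fathers, against 147, 141, 128, 142 and 143 FPKM with unrestrained fathers. All restrained libraries were above all unrestrained ones, as in 2.73% of the genes tested there. The adjusted p passed (0.0361), but the log2 change of 0.19 (SE 0.04) was under 1.4-fold. Without the fold limit 64 genes passed as higher there, 0.645% of those tested. With dATF-2KO fathers Hsc70-3 was at 157 to 169 FPKM in heads of restrained and at 154 to 166 FPKM in heads of unrestrained fathers, a log2 change of 0.02 (adjusted p = 0.862), and the difference between the genotypes did not pass (-0.18, SE 0.04, adjusted p = 0.137).

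Other listed genes with small p-values did not pass the adjusted threshold. In the list of Hsp90 and its partners these were, in heads with w1118 fathers, the mitochondrial Hsp90 Trap1 (log2 change -0.11, adjusted p = 0.0746) and the Hsp90 of the endoplasmic reticulum Gp93 (0.10, adjusted p = 0.127), in heads with dATF-2KO fathers the kinase cochaperone Cdc37 (-0.09, adjusted p = 0.421), and in bodies CG1416 (-0.09, adjusted p = 0.603) and HIP-R (0.12, adjusted p = 0.603). In the small heat shock protein list the smallest p in bodies was that of Hsp67Bc (-0.31, SE 0.16, adjusted p = 0.726), a further gene of the 67B cluster, and in heads with w1118 fathers that of CG13133 (0.62, SE 0.19, adjusted p = 0.163), which was at 1.47 to 3.13 FPKM with restrained and 1.11 to 2.10 FPKM with unrestrained fathers.

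Of the J proteins and exchange factors, which load and recycle Hsp70, l(2)tid had the smallest p in heads with dATF-2KO fathers (-0.09, adjusted p = 0.38) and DnaJ-60 in heads with w1118 fathers (0.18, adjusted p = 0.219). Among the chaperonins, the ring chaperones that fold actin and tubulin and their mitochondrial counterparts, Cct5 had a log2 change of 0.17 (adjusted p = 0.637) in bodies, T-cp1 one of -0.09 (adjusted p = 0.345) in heads with dATF-2KO fathers and Tcp-1eta one of -0.11 (adjusted p = 0.102) in heads with w1118 fathers. In the body library with egg and yolk RNA, 9 of 14 chaperonins were higher than in any of the other 9 bodies, as were 12.9% of all genes tested. Cct5 was at 52.5 FPKM there and at 37.3 to 45.1 FPKM in the others, and T-cp1 at 49.0 FPKM and at 34.8 to 36.8 FPKM in the others. Their part in the change of the list was not tested, and without that library the change of Cct5 was 0.11 (adjusted p = 0.714). Hsromega, a heat-inducible noncoding RNA that Hsf also drives, had a log2 change of -0.12 (adjusted p = 0.626) in bodies, where it averaged 102 ± 6.27 FPKM with restrained and 111 ± 3.12 FPKM with unrestrained fathers.

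Between the tissues, some chaperones stood far apart. Hsp60C, Hsp60B and CG9920, of the chaperonin list, averaged 359, 284 and 964 FPKM in bodies with unrestrained dATF-2KO fathers and 0.308, 0.21 and 2.63 FPKM in heads with the same fathers. Their housekeeping relative Hsp60 averaged 146 FPKM in bodies and 170 FPKM in heads. In the Hsp70 list, Hsc70-2 was at 149 FPKM in bodies and 0.279 FPKM in heads, while Hsc70-4 was at 935 and 952 FPKM in bodies and heads. Hsp67Bb, whose locus overlaps that of Hsp22, averaged 41.0 FPKM in bodies and was listed at 0 in all 5 heads with unrestrained dATF-2KO fathers, so that the values of Hsp22 in bodies, though not in those heads, come with an overlapping neighbour that is transcribed; its part in them was not tested. The J proteins jdp and Csp, the second a protein of synaptic vesicles, were at 16.4 and 68.7 FPKM in bodies and at 199 and 126 FPKM in heads. Of the listed genes with at least 1 FPKM in either tissue, all body libraries were above all head libraries for 10 of 13 small heat shock protein genes, 6 of 7 Hsp70 genes, 9 of 10 genes of the Hsp90 list, 10 of 14 J proteins and exchange factors and 11 of 14 chaperonins, beside 49.3% of all genes. In the list of Hsf and its regulators or RNA targets this held for 0 of 3 genes, with 2 below and 1 overlapping, beside 33.1% of all genes below. These counts include ratios near 1, which cannot be told from a difference of scale. Of the chaperonins counted, T-cp1, CG8258, CG7033 and Tcp-1zeta had ratios of body over head below the median of 1.17 over all genes. Cct5, CG5525, Cctgamma, Hsp60B, Hsp60C, Hsp60D and CG9920 were above that median. Whether the lists differ from all genes was not tested.

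**Figure D5:**
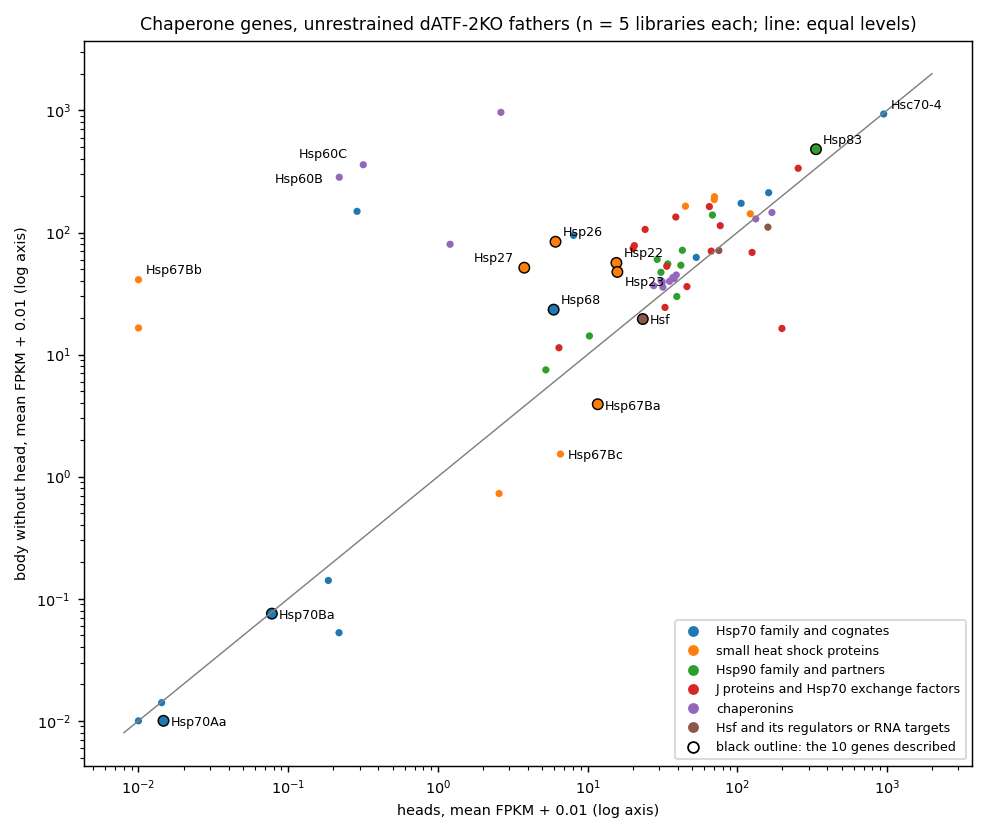
Mean FPKM + 0.01 in bodies (vertical) against heads (horizontal), both on log axes, of the 67 listed chaperone genes in sons of unrestrained dATF-2KO fathers (n = 5 libraries each), coloured by list, with the 10 genes described here outlined in black and the line of equal levels. Hsp26 and Hsp27 stand well above the line, Hsp67Ba and Hsf below it, and the chaperonins Hsp60B and Hsp60C, near 0.3 FPKM or below in heads, are above 280 FPKM in bodies.

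Within groups, the heat shock genes varied together only in part. For each pair of the 8 genes, log2(FPKM + 0.5) was centred on the group mean and correlated over the 30 libraries, as a description. The libraries of a group share their scaling, and the 10 bodies share 1 library that stands apart, the one with egg and yolk RNA. Unrestrained replicate 3 of the bodies was kept throughout. It had the lowest Hsp26 (72.1 FPKM) and Hsp23 (41.5 FPKM) and the highest Hsc70-3 (245 FPKM) of the 10 bodies. How far single libraries set the r of bodies was not tested. Hsp26 and Hsp27 had the highest Pearson r of the 28 pairs, 0.55, and r was 0.24 over the 28 libraries without the ones with egg and yolk RNA. Within tables their r was 0.97 in the 10 bodies (0.88 without the egg and yolk library), -0.12 in the 10 heads with dATF-2KO fathers (-0.79 without the yolk library) and 0.61 in the 10 heads with w1118 fathers. Hsp26 and Hsf had r = 0.49, and without those libraries 0.61, then the highest of the 28 pairs. Within tables r was 0.62 in bodies, 0.24 in heads with dATF-2KO fathers and 0.75 in heads with w1118 fathers. Hsp23 and Hsp83 had r = -0.47 over all (-0.44 without those libraries). This came with an r of -0.80 in bodies, while r was 0.20 in heads with dATF-2KO fathers and -0.14 in heads with w1118 fathers. It was not particular to Hsp23: in bodies without the egg and yolk library, r with Hsp83 was -0.79 for Hsp23, -0.95 for Hsp26 and -0.81 for Hsp27. With that library r was -0.19 for Hsp26 and -0.13 for Hsp27. In heads with dATF-2KO fathers it was -0.24 and -0.29, and in heads with w1118 fathers 0.21 and 0.16, for Hsp26 and Hsp27. Hsp22 had r between -0.17 and 0.13 with the other 7 genes over the 30 libraries.

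Of 6913 other genes that averaged 5 FPKM or more in each table, those most like Hsp83 over the 30 libraries were l(3)72Ab (r = 0.88), Spn (0.83) and RpS24 (0.82), and l(3)72Ab stayed first without the egg and yolk libraries (0.88). Those most like Hsp26 were PPP4R2r (0.71), CG6712 (0.68) and Socs44A (0.68), none of which was among the top 3 without those libraries, when CG7289 (0.76), snoRNA:Psi28S-2622 (0.76) and D19A (0.70) led. For Hsf they were CG4065 (0.63), CG1677 (0.63) and Tsc1 (0.63), and CG1677 (0.67) and CG4065 (0.64) were again the first 2 without those libraries. In bodies with unrestrained dATF-2KO fathers l(3)72Ab ranged from 8.05 to 10.9 FPKM and RpS24 from 533 to 817 FPKM. The part of single libraries in their r with Hsp83 was not tested.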

How the data were processed

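Poly(A) RNA of pools of 50 F1 males was sequenced. The paper's methods name a stranded total RNA kit with rRNA removal and the sample labels another kit and sequencer, and neither gives the strand setting of the counting. The authors mapped paired reads to dm3 (per the submitters' processing notes with TopHat2, beside CASAVA, Cufflinks and Cuffnorm, versions not given in the sources used here). They deposited 4 tables of FPKM per library, each scaled on its own, which also hold a mean of the restrained group, ratios, p-values, q-values and false discovery rates. Only that mean was used, for bodies with w1118 fathers, and no ratio or p-value. There, 12 columns of values per library were not used because their names show neither sample nor group. Samples were grouped by their titles.

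limma 3.58.1 (R 4.3.3) was fitted with a mean-variance trend to log2(FPKM + 0.5) of genes averaging 1 FPKM or more over a table's libraries, restrained against unrestrained, with Benjamini-Hochberg adjustment over all genes tested in the table. Calls took the study's thresholds of 0.05 and 1.4-fold. Differences of changes were interaction contrasts over 4 group means. Exact two-sided permutation tests used log2(FPKM + 0.5). The script was tested on simulated data. The 10 genes, the chaperone lists and the markers were chosen with earlier results of these data known. Besides the 10 genes, the text names, per list and comparison, genes among the 3 smallest p-values, genes past an adjusted p of 0.05, the 3 genes most like Hsp26, Hsp83 and Hsf, markers, and, chosen after their values were seen, listed genes that differ between tissues. Positions are those of the tables (dm3), counted from 1. Exons, strands and gene IDs came from Ensembl (BDGP6), by symbol (10 of 10 matched). Promoter and protein sequences were not used here.

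The alternatives tried were a pseudocount of 0.1 or 1, a filter at 5 FPKM or none, quantile and median scaling, a replicate block, robust and weighted fits, no threshold on the fold, exact permutation tests in place of limma, and each library left out in turn. Leaving out both libraries with egg and yolk RNA together, for the correlations and the tissue difference, was added after seeing the data. FPKM tables give no read counts, so no counting interval is given.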

Additional observations from a re-analysis of the deposited data

Results flagged for a closer look

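A library was far from the other 4 of its group, by Dixon's test at the 95% level, in 9 of the 57 sets of 5 values in which the 10 genes varied. Of these, 3 are sets of 4 zeros and 1 value above 0, which the test marks by construction, and 6 of the other 54 were marked, where chance gives about 1 in 20. Of the 9, 3 came from a single library, restrained replicate 3 of the bodies with dATF-2KO fathers, which holds egg and yolk RNA: Hsp26 was at 137 FPKM (81.0 to 93.7 FPKM in the other 4), Hsp27 at 76.5 FPKM (45.8 to 53.3 FPKM) and Hsp68 at 20.7 FPKM (23.4 to 24.4 FPKM). All 8 egg and yolk markers were higher in it than in the other 9 bodies; their part in these 3 values was not tested.

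In heads, Hsp68 was at 6.11 FPKM in restrained replicate 1 with dATF-2KO fathers (5.69 to 5.79 FPKM in the others). Hsp83 was at 318 FPKM in restrained replicate 2 with w1118 fathers (307 to 309.6 FPKM in the others). Hsf was at 23.02 FPKM in unrestrained replicate 2 with w1118 fathers (24.3 to 24.8 FPKM in the others).

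The last 3 were Hsp70Aa, listed at 0 in the other 4 libraries of its group: 0.0246 FPKM in restrained replicate 1 and 0.0235 FPKM in unrestrained replicate 4 with dATF-2KO fathers, and 0.0232 FPKM in unrestrained replicate 3 with w1118 fathers, all in heads.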

How the results depend on the processing

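No call depended on the processing: with 20 alternatives for each restraint comparison, 29 for the difference between genotypes and 31 for that between tissues, none of the 8 genes tested was called (nor Hsp70Aa and Hsp70Ba, which had a fit only without the filter), and all 1197 alternative values kept their side of the threshold, or moved by less than the spread between replicates where there was no test. The lowest adjusted p under any alternative was 0.345 in bodies with dATF-2KO fathers (Hsf, weighted fit), 0.132 in their heads (Hsp83, no filter), 0.167 in heads with w1118 fathers (Hsp22, without restrained replicate 3), 0.1004 for the difference between genotypes (Hsp22, without restrained w1118 replicate 3) and 0.384 for that between tissues (Hsp83). Changes not called crossed zero in 14, 8, 19, 17 and 18 of 159, 159, 159, 231 and 246 values in that order, among them Hsp27 in bodies without the library with egg and yolk RNA (-0.06). The median change of the 8 genes ranged from 0.04 to 0.10 on the log2 scale in bodies, from 0.00 to 0.07 in heads with dATF-2KO fathers and from -0.04 to 0.01 in heads with w1118 fathers. Exact permutation tests in place of limma could make no call, so their lack of calls carries no weight. Their smallest possible p was 0.00794, and only genes whose groups did not overlap reach it. These were 0.906% above and 1.09% below in bodies with dATF-2KO fathers. In their heads they were 1.43% and 0.792%, and in heads with w1118 fathers 2.73% and 2.69%. With so few genes, adjustment over all genes tested keeps that p above 0.05. A replicate block in the fit gave 0 calls in each comparison, with medians of 0.08, 0.04 and -0.02, as without it. Same-numbered libraries did not deviate together (r from -0.12 to 0.14), so the numbers were not taken as pairs. No alternative was run for bodies with w1118 fathers, for which only the authors' mean was used. Hsp70Aa and Hsp70Ba were below the limit for testing in every table.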
